A study of Homo sapiens with 5 samples.

Results

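Wide gained Rb regions at coding promoters were stretches of 1400 bp or more with Rb peaks in abemaciclib-treated and none called in control cells. They lay at the start of a protein-coding gene, and a missing peak call does not show that Rb was absent. They were chosen by measured values, namely which peak lists held a peak and how far the merged peaks reached. Overlapping peaks from the 4 Rb lists were joined into merged regions (minimum overlap 1 bp). A region counted as gained when both abemaciclib libraries and neither DMSO library had a peak in it. It counted as a coding promoter region when it touched the window between 2000 bp before and 500 bp after a transcription start site (TSS) of any GENCODE protein-coding gene. Of 14810 merged regions on chromosomes 1 to 22 and X, 8607 (58.1%) were gained. Of 11612 merged regions at coding promoters, 7322 (63.1%) were gained, and 1082 of these (14.8%) were 1400 bp or wider. The other 6240 gained coding promoter regions, here called narrower, served for comparison. The wide regions touched the promoters of 1340 of 19962 coding gene names (6.71%), or 16.7% of the 8006 genes with any gained promoter region.

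Rb occupancy came from CUT&RUN, in which a nuclease is tethered by an antibody to the protein of interest and cuts out the DNA around it for sequencing. ZR-75-1 cells, a hormone receptor-positive breast cancer line, of parental genotype in every library, were given DMSO or 500 nM abemaciclib for 4 days. There were 2 Rb libraries per treatment, which the study describes as independent samples, and 1 negative-control library made with IgG2a in DMSO-treated cells. The lists held 13960 and 12234 Rb peaks in abemaciclib replicates 1 and 2, 1438 and 2582 in DMSO replicates 1 and 2, and 589 in IgG2a; they carry no read totals, so the depth behind a peak is unknown here.

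The retinoblastoma protein Rb restrains entry into the cell cycle. The kinases CDK4 and CDK6, paired with D-type cyclins, phosphorylate it, and abemaciclib blocks those kinases, which leaves Rb in the hypophosphorylated form that binds E2F transcription factors and, through them or other partners, chromatin. Most human coding promoters sit in CpG islands, stretches that keep a high density of the dinucleotide CpG, carry little DNA methylation and hold the start site and often the beginning of the first intron. The width of a peak says over how much of such a promoter signal passed the caller's threshold, and it also grows with the height of the peak.

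The base composition of these regions can be read from windows of 120 bases around summits, the points of highest signal, in abemaciclib replicate 1. They are shown on the plus strand of hg38 with every CpG in capitals, and were taken where no annotated exon lay in the window. ELOVL6 (chr4:110196783-110196902), BCL2L11 (chr2:111120591-111120710), EFNA5 (chr5:107672263-107672382) and LRP8 (chr1:53326258-53326377) are among the 10 widest regions. ZBTB14 (chr18:5296406-5296525) is among the 10 best ranked, MYB (chr6:135181006-135181125) and UHRF1 (chr19:4909783-4909902) stand for the luminal and cell cycle genes, MAML3 (chr4:140151941-140152060) for signalling genes, and CREB3L1 (chr11:46278365-46278484) fell just short of the width threshold.
ELOVL6: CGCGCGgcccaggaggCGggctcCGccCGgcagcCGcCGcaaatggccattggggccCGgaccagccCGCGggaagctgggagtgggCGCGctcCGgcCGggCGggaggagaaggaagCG
BCL2L11: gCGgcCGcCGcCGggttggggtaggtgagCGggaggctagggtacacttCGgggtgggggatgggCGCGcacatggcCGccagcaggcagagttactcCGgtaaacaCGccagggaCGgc
EFNA5: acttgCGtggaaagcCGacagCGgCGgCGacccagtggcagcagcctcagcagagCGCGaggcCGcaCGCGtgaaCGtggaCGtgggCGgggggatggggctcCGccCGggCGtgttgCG
LRP8: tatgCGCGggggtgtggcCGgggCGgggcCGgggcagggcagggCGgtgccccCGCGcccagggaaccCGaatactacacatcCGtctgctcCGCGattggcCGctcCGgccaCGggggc
ZBTB14: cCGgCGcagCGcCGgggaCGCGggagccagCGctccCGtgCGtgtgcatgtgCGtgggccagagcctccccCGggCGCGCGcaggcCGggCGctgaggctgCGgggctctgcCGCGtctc
MYB: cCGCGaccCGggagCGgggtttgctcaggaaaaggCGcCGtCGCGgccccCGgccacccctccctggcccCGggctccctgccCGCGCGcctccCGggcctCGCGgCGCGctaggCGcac
UHRF1: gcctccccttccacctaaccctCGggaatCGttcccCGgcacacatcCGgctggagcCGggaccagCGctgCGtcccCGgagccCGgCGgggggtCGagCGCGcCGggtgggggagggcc
MAML3: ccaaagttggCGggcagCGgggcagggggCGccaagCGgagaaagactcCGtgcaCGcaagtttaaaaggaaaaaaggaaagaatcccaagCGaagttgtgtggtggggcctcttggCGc
CREB3L1: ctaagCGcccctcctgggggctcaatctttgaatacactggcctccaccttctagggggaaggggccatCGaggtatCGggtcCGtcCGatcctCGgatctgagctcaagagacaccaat
These are examples of a range: the 32 windows of this kind in the named wide regions held between 4 and 19 CpG (median 11.0). The MAML3 window, with 8, lay below that median, and the CREB3L1 window held 6.

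A site for E2F, the factor through which Rb reaches its best known promoters, is shown in capitals with 27 bases on each side for examples among the named wide regions in which it lay within 100 bp of the replicate 1 summit and outside annotated exons. The letters searched on either strand were TTGGCGC (as at MAML3), TTCCCGC (as at ELOVL6), TTCGCGC (as at MRPL18/TCP1) and TTGCCGC (as at SETD5), and each stretch is written on the strand that holds the site. ELOVL6 (chr4:110196824-110196884), LHX4 (chr1:180231139-180231199), MAML3 (chr4:140151942-140152002), MRPL18/TCP1 (chr6:159789749-159789809), PSMG2/SPIRE1 (chr18:12658486-12658546) and SLC17A7 (chr19:49443331-49443391) are on the minus strand, and SETD5 (chr3:9397212-9397272) is on the plus strand.
ELOVL6: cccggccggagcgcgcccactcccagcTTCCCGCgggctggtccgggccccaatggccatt
LHX4: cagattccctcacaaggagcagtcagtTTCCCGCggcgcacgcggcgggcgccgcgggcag
MAML3: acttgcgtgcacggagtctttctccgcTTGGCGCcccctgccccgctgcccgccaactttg
MRPL18/TCP1: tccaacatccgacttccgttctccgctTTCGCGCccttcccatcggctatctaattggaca
SETD5: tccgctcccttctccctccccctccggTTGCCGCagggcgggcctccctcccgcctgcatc
PSMG2/SPIRE1: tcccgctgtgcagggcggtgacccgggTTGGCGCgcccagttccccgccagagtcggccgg
SLC17A7: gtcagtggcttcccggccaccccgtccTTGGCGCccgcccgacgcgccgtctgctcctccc
A match is a description of the letters present and not evidence of a bound site.

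The width of the wide regions ran from 1400 to 3547 bp, with a median of 1617 bp and quartiles of 1489 and 1856 bp. Since gained regions hold peaks of the abemaciclib libraries alone, each merged width joins the same 2 libraries. The widest single peak in a wide region had a median of 1549 bp in abemaciclib replicate 1 and 1404 bp in replicate 2 (mean 1476 ± 103 bp, SD, n = 2 libraries). In narrower regions the medians were 767 and 656 bp (712 ± 78.1 bp). Replicate 1 gave the wider peaks of the pair in both kinds of region. The wide regions together covered 1871 kb, against 5224 kb for the narrower ones.

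Most wide regions were not assembled from separate peaks. In 928 of 1082 (85.8%) each library had a single peak, against 98.4% of narrower regions. A single peak of at least 1400 bp was present in both libraries in 445 wide regions (41.1%), in at least 1 library in 966 (89.3%), and in neither in 116 (10.7%), where the threshold was met by offset or neighbouring peaks. Replicate 2 had 2 or more peaks in 107 wide regions and replicate 1 in 55. Peaks of this size were rare without the drug: 1789 of 13960 peaks (12.8%) reached 1400 bp in abemaciclib replicate 1 and 1344 of 12234 (11.0%) in replicate 2, but 2 of 1438 (0.139%) in DMSO replicate 1 and 1 of 2582 (0.0387%) in DMSO replicate 2. In the IgG2a list 16 of 589 peaks (2.72%) did so. None of the wide regions overlapped an IgG2a peak (0 of 1082, Wilson 95% interval 0 to 0.354%), beside 1 of 6240 narrower regions. The authors called Rb peaks against IgG, so little overlap was possible and the count is no test of background. The smallest two-sided p that exact permutation allows for 2 against 2 libraries is 0.333. The abemaciclib and DMSO shares are therefore differences set beside the spread of the replicates and not tests.

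The widths had no gap at the threshold, which cuts a continuous slope. WAPL, which releases cohesin from DNA, ATF4, the transcription factor of the integrated stress response, and the NKTR/SEC22C pair each measured 1400 bp. Just outside, CREB3L1 measured 1399 bp, and the NCBP2/NCBP2AS2 pair and ST7 measured 1398 bp each. At 1000 bp or more 2984 gained coding promoter regions qualified, at 2000 bp 188, at 2500 bp 48 and at 3000 bp 8.

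**Figure D1:**
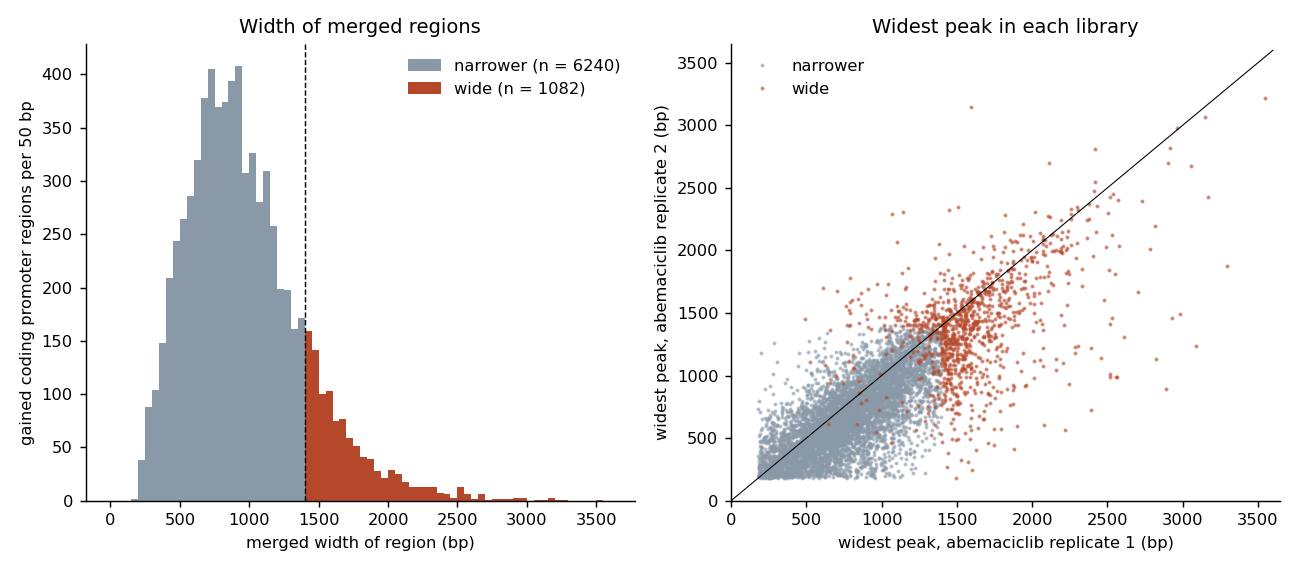
Left, merged width in bp of the 7322 gained coding promoter regions in bins of 50 bp, with the 1400 bp threshold dashed. Right, the widest peak of each region in abemaciclib replicate 1 against replicate 2 (bp) with the line of equality. The slope of the width distribution is unbroken at the threshold, and the medians of wide regions were 1549 bp in replicate 1 and 1404 bp in replicate 2.

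The 10 widest regions lay at genes of unlike function. The SOX12 region, at a SoxC transcription factor gene, was the widest at chr20:324144-327690. It was a single peak of 3547 bp in replicate 1 and of 3219 bp in replicate 2, with folds over background of 13.3 and 11.8. ZNF503 (chr10:75400549-75403716, 3168 bp), which encodes a zinc finger protein, held peaks of 3168 and 2424 bp and the highest folds of the 10, at 45.7 and 38.1. ICAM5 (chr19:10288528-10291678, 3151 bp), an adhesion molecule known from neurons, had peaks of 3151 and 3070 bp. LRP8 (chr1:53325881-53328862, 2982 bp), a receptor for reelin and apolipoprotein E, had peaks of 2960 and 2982 bp, so the widths of the libraries lay within 100 bp of each other at ICAM5 and LRP8. The ICAM5 summits lay far apart, at -1053 bp from the TSS in replicate 1 and 1225 bp in replicate 2. At LRP8 they lay at 1081 and 1054 bp. RIMS2, a presynaptic scaffold gene on chromosome 8, had a region of 3191 bp with peaks of 3055 and 2674 bp.

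At the other 5 of the 10, a library split the region. ELOVL6 (chr4:110195834-110198940, 3107 bp), a fatty acid elongase, had 2 peaks in replicate 1, the wider of 1451 bp, and a single peak of 2321 bp in replicate 2. BCL2L11 (chr2:111120262-111123348, 3087 bp), which encodes the pro-apoptotic protein BIM, was a single peak of 3087 bp in replicate 1 and 2 peaks, the wider of 1235 bp, in replicate 2. EFNA5 (chr5:107670202-107673186, 2985 bp), the ligand ephrin-A5, was a peak of 2982 bp in replicate 1 and 2 peaks in replicate 2, the wider of 1496 bp. ADIRF/MMRN2 (chr10:86968359-86971652, 3294 bp) had 1 peak of 3294 bp in replicate 1 and 2 peaks in replicate 2, the wider of 1880 bp. PRPF6/SAMD10 (chr20:63978456-63981694, 3239 bp), where PRPF6 encodes a spliceosome subunit, had 2 peaks in replicate 1, the wider of 1595 bp, and a peak of 3149 bp in replicate 2. Of these 5, the split was in replicate 2 at BCL2L11, EFNA5 and ADIRF/MMRN2 and in replicate 1 at ELOVL6 and PRPF6/SAMD10.

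**Figure D2:**
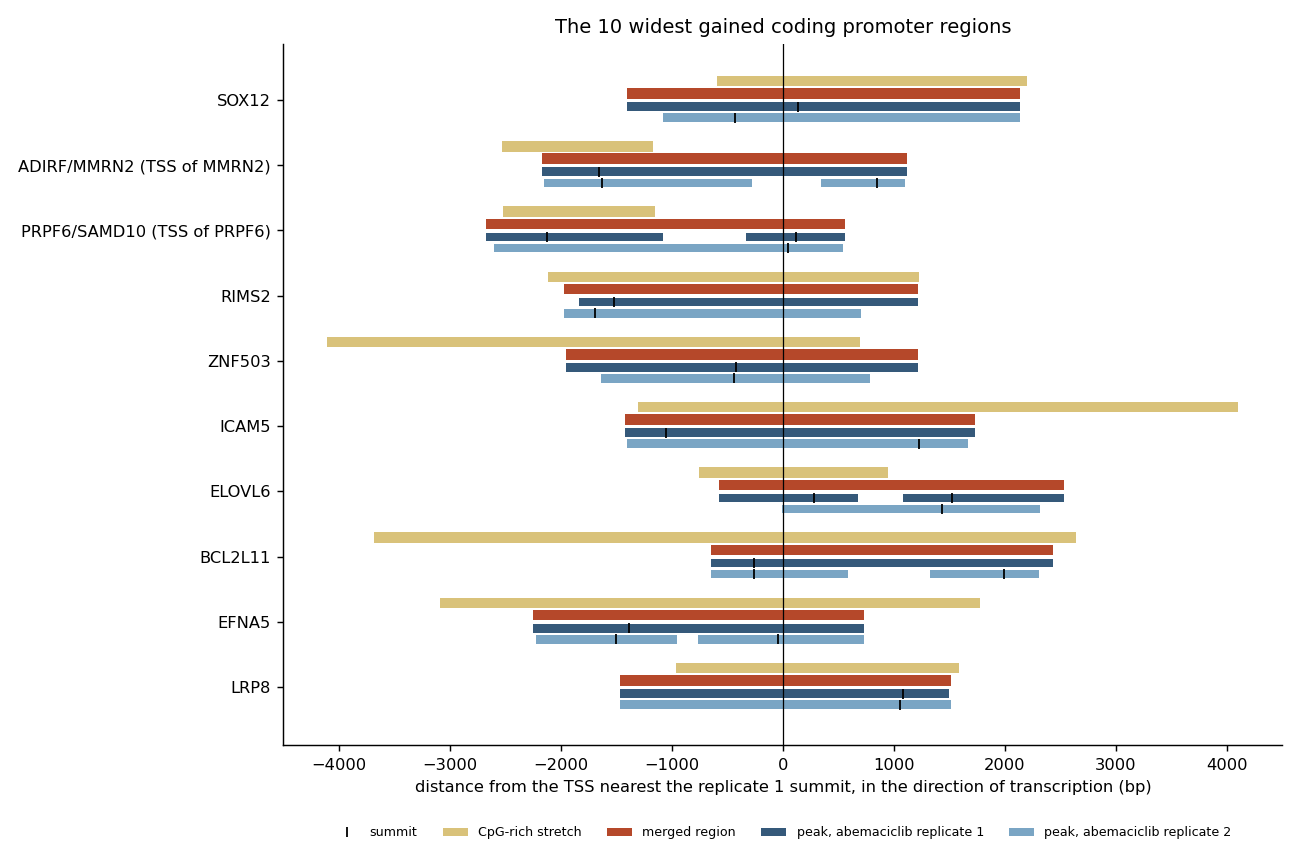
The 10 widest regions drawn to scale against the TSS nearest the replicate 1 summit, in bp in the direction of transcription. Bars are the longest CpG-rich stretch that overlaps the region, the merged region, and the peaks of each abemaciclib library, with ticks at summits. The SOX12 region runs from -1408 to 2139 bp, and BCL2L11 lies inside a CpG-rich stretch of 6321 bp.

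The wide regions ranked high among the peaks of each library. The peak caller's fold at the strongest peak had medians of 17.5 in replicate 1 and 14.6 in replicate 2 for wide regions (16.1 ± 2.07), and 10.9 and 9.16 for narrower regions (10.0 ± 1.21). By p-value, their median rank was 4060 of 13960 peaks in replicate 1 and 4092 of 12234 in replicate 2, against 6838 and 6848. These measures come from the same peaks as the width, so they describe the members and support nothing. Split into deciles of mean rank over both libraries, 37.5% of gained coding promoter regions in the strongest decile were wide (275 of 733), 14.2% in the fifth decile and 0.683% (5 of 732) in the weakest.

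Wide regions were mostly strong ones. The top tertile of strength held 689 wide regions (63.7%), the middle 321 (29.7%) and the last 72 (6.65%), and over all gained coding promoter regions Spearman's rho between width and mean rank was -0.58 (n = 7322 regions, which share the libraries). Within narrower regions it was -0.55 (n = 6240), and within the wide regions, a range of widths cut off by the rule, -0.08 (n = 1082). The 10 best ranked were CARS2/ING1, ZBTB14, STUB1, METTL9, RAB28, DIAPH1, SLC17A7, PEX5, KLRG1/M6PR and NPC1, and they measured between 1415 and 2534 bp, which put none of them among the 10 widest. NPC1 (chr18:23585950-23587364), a cholesterol transporter of the lysosome, was the narrowest of them, with folds of 46.1 and 39.9 and peaks of 1415 and 926 bp. CARS2/ING1 (chr13:110713886-110716419) was the widest, with folds of 50.7 and 38.8 and peaks of 2534 and 2124 bp. A DMSO peak lay 736 bp from that region, and 24 wide regions (2.22%) had a DMSO peak within 5 kb, against 2.47% of narrower ones. SOX12, the widest, stood at rank 6039 in replicate 1 and 5373 in replicate 2.

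A feature that the rule did not use, the length of the CpG-rich stretch, differed between the kinds of region. This was the longest run of bases covered by 200-bp windows with a GC share of at least 0.5 and a CpG observed/expected ratio of at least 0.6 that overlapped the region, sought up to 5 kb beyond it. Its median length was 1735 bp at wide regions (quartiles 1414 and 2156 bp) and 1221 bp at narrower ones (948 and 1578 bp). A stretch of 1400 bp or more was found at 820 of 1082 wide regions (75.8%) and at 2275 of 6240 narrower regions (36.5%), a difference of 39.3 percentage points (Newcombe 95% interval 36.4 to 42.1). Such intervals cover counting error over regions, which are not replicates.

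All 1082 wide regions overlapped a stretch, whereas 109 narrower regions (1.75%) did not. The share of gained coding promoter regions that were wide was 3.84% where the stretch measured 500 to 999 bp, 9.45% at 1000 to 1499 bp, 24.7% at 1500 to 1999 bp and 34.7% at 2000 to 2499 bp. It was 32.1% at 2500 to 2999 bp and 37.4% (71 of 190) at 3000 bp or more, where the intervals overlap. The share therefore did not go on climbing beyond 2000 bp by more than the counting error.

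A longer overlapping stretch is more easily met by a longer region, so the stretch that held the replicate 1 summit was also measured. Its median was 1724 bp at wide and 1214 bp at narrower regions, and 22 wide (2.03%) and 215 narrower summits (3.45%) lay outside any stretch. The difference was also present within each tertile of strength. In the top tertile the medians were 1720 bp (wide) and 1256 bp (narrower), in the middle tertile 1757 and 1224 bp, and in the last 1805 and 1190 bp. Strength was not equal within a tertile, and wide regions had the higher median folds in each. In the top tertile these were 22.3 and 18.5 in replicates 1 and 2, against 20.0 and 16.8 for narrower regions. Stretch length itself went little with strength, with a rho of -0.13 against mean rank. Against width it was 0.38 over all 7322 regions and 0.27 within the wide ones.

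**Figure D3:**
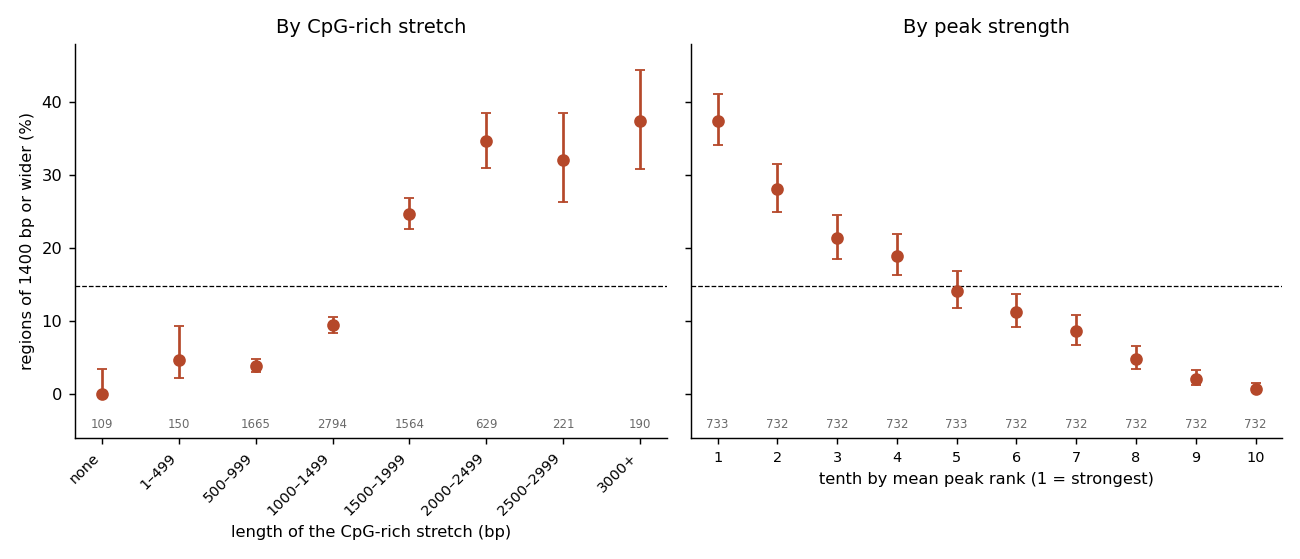
Percentage of gained coding promoter regions that were 1400 bp or wider, by length of the overlapping CpG-rich stretch (left, bp) and by decile of mean peak rank (right, 1 is strongest). Points are shares, bars Wilson 95% intervals, small figures the regions per bin, and the dashed line the 14.8% of all. The share runs from 0 of 109 without a stretch to 37.4% at 3000 bp or more, and from 37.5% to 0.683% across the deciles.

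Over whole regions, the composition of the DNA did not part the groups as its extent did. The median GC content was 66.4% in both wide and narrower regions, and the CpG observed/expected ratio was 0.811 and 0.813. CpG density was 8.75 per 100 bp in wide and 8.69 in narrower regions. At summits, in windows of 200 bp, the GC share was 71.0% in replicate 1 and 70.0% in replicate 2 for wide regions and 69.5% in both for narrower ones, a mean difference of 1.00 point with an SD of 0.707 between libraries. The observed/expected ratio there was 0.883 ± 0.00839 against 0.850 ± 0.00758 (SD, n = 2 libraries). It was higher at summits of wide regions in replicate 1 (0.889 against 0.856) and in replicate 2 (0.877 against 0.845).

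Wide regions and their CpG-rich stretches reached about equally far from the start site on average, while edges at single regions differed by about as much as in narrower ones. At regions with a single coding gene and a MANE transcript (the single reference transcript agreed for a gene) whose TSS they covered, wide regions reached from a median of -677 bp to +954 bp around the TSS (n = 754), and their CpG-rich stretch from -703 to +992 bp. Narrower regions reached from -356 to +475 bp (n = 4036), and their stretches from -493 to +703 bp. The reach of the regions follows from the width rule. Taken region by region, the upstream edges of region and stretch lay a median of 174 bp apart in wide and 176 bp in narrower regions, and the downstream edges 228 and 223 bp apart. A median of 86.5% of the stretch lay within the region for wide regions and 63.8% for narrower ones, and 92.2% and 100% of the region lay within the stretch, shares that the width rule also sets in part. The upstream edges of region and stretch had a rho of 0.55 over wide and 0.46 over narrower regions, and the downstream edges 0.40 and 0.27, a description over regions that share libraries. Both kinds reached further into the gene than upstream of it, in 66.8% of wide and 64.9% of narrower regions.

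Examples go both ways. BCL2L11, EFNA5, FZD8 and MYB lay wholly within stretches of 6321, 4859, 4633 and 3204 bp, which went beyond the region. GRB7, an adaptor of receptor tyrosine kinases, had a region of 2106 bp (chr17:39737828-39739933) with a stretch of 247 bp, and SLC1A5, a glutamine transporter, one of 2586 bp (chr19:46786594-46789179) with 881 bp. At LFNG, which encodes a glycosyltransferase that modifies Notch receptors, 26.3% of a region of 2406 bp lay in the stretch. The H2AC16 region shared 1.04% of its bases with the longest stretch that overlapped it and had a GC content of 48.5%. Shorter stretches in a region were not counted.

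**Figure D4:**
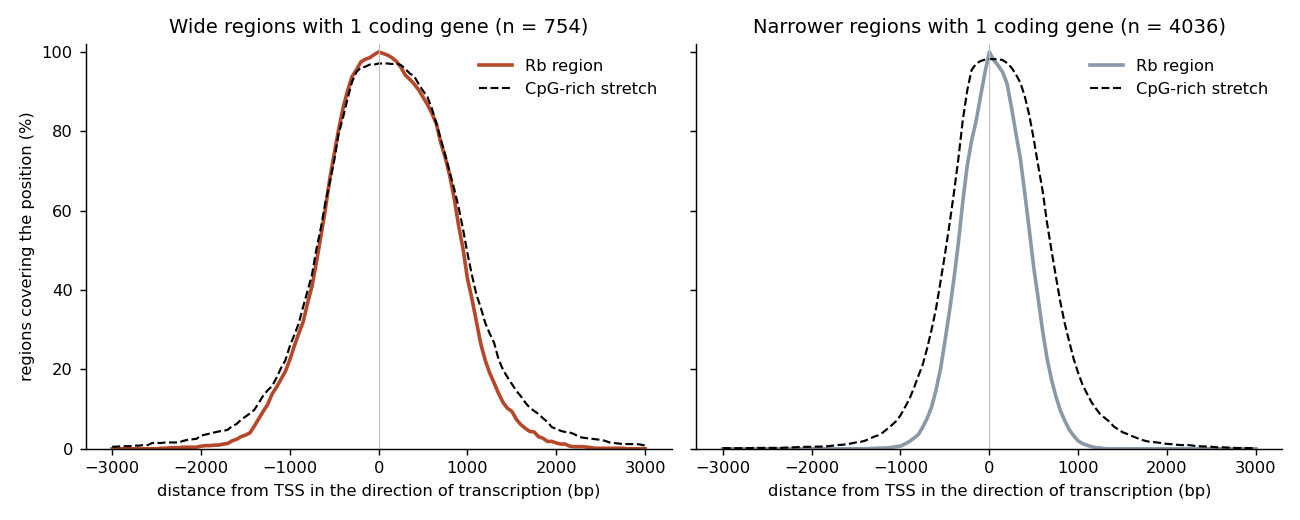
Percentage of regions that cover each position around the MANE TSS, in bp in the direction of transcription, for wide (left, n = 754) and narrower regions (right, n = 4036) with a single coding gene; the dashed line is the same for the CpG-rich stretch. At 500 bp downstream 88.6% of wide regions and 90.2% of their stretches covered the position, against 45.7% of narrower regions and 78.1% of theirs.

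Summits of wide regions still lay near start sites, though less tightly. The distance from summit to the nearest coding TSS had a median of 136 bp in replicate 1 and 146 bp in replicate 2 (141 ± 7.07 bp), against 100 and 104 bp in narrower regions. The replicate 1 summit was within 500 bp of a coding TSS in 948 wide regions (87.6%) and in 94.5% of narrower ones, a difference of -6.84 points (-9.01 to -4.91). The summits of both libraries fell within 100 bp of each other in 59.1% of wide and 61.7% of narrower regions, an interval of the difference (-5.85 to 0.479 points) that includes 0. By annotation, 33.1% of replicate 1 summits in wide regions lay in a UTR, 11.2% in a coding exon, 27.3% in an intron and 25.6% outside coding genes. The last share was 20.4% in narrower regions (difference 5.15 points, 2.44 to 8.01).

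Wide regions more often spanned the promoters of several genes. They covered promoters of 2 or more coding genes in 240 of 1082 cases (22.2%) and narrower regions in 1013 of 6240 (16.2%), a difference of 5.95 points (3.39 to 8.67). A longer region touches more promoter windows by its length alone. Counted by genes with a TSS within 500 bp of the summit, which does not depend on the region's width, the shares were 15.2% and 12.2% (difference 3.02 points, 0.837 to 5.42), so the difference was smaller by that count. In the middle tertile of strength the first difference was 2.90 points with an interval from -1.43 to 7.86, which includes 0. Divergent pairs, in which genes on opposite strands start close together, made up 184 of 1082 wide and 713 of 6240 narrower regions (difference 5.58 points, 3.31 to 8.05). These pairs were sought among the genes whose promoter windows the region touched. That count therefore also grows with region width, and it was not repeated at a fixed distance from the summit. Named regions that touched the promoter windows of 2 coding genes included FOXA1/TTC6, CDK4/MARCHF9, HIRA/MRPL40 and PCGF2/PSMB3. A wide region at such a pair cannot be given to either gene.

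Sequence motifs at summits separated the kinds of region little. The E2F letters occurred within 100 bp of the replicate 1 summit in 199 wide regions (18.4%) and in 17.1% of narrower ones, a difference of 1.26 points (-1.13 to 3.85). At replicate 2 summits the shares were 17.2% and 16.2%. Windows of the same length at 19970 coding TSSs held the letters in 11.5% of cases. The GC box GGGCGG, which the SP1 and KLF factors recognise, was present in 65.6% of wide and 61.0% of narrower summit windows in replicate 1 (difference 4.58 points, 1.46 to 7.60) and in 64.5% and 59.6% in replicate 2 (4.94 points, 1.80 to 7.99), against 46.9% of coding TSS windows. The ETS letters CCGGAAG were less common in wide regions in replicate 1 (6.65% against 8.54%, -3.41 to -0.113 points), but in replicate 2 the interval reached 0.0230, just past 0; 10.2% of coding TSS windows held them. For CCAAT (NFY), TTTGAA (CHR), TGCGCA (NRF1), TGACGTCA (CRE) and AAGATGGCG (YY1) the interval included 0 in both libraries; the coding TSS windows held these letters in 25.9%, 7.39%, 7.50%, 1.87% and 2.05% of cases. Each motif was sought on both strands.

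Gene groups differed widely in how often a gained promoter region was a wide one. Against 16.7% of all genes with a gained promoter region, the share was highest for the immediate early and stress response genes, at 30 of 56 (53.6%, Wilson 95% interval 40.7 to 66.0%), and lowest for cytosolic ribosomal protein genes, at 2 of 54 (3.70%, 1.02 to 12.5%). Developmental transcription factors (13 of 36, 36.1%), chromatin regulators (26 of 77, 33.8%), genes of the WNT, TGF-beta, Notch and Hedgehog pathways (18 of 59, 30.5%) and receptor tyrosine kinase and PI3K pathway genes (16 of 57, 28.1%) also had intervals above 16.7%. Zinc finger genes named ZNF (19 of 237, 8.02%) had an interval below it. For luminal transcription factors (4 of 15), replication-dependent histones (5 of 23), proteasome genes (5 of 29), cell cycle genes (6 of 38), oestrogen response genes (7 of 51), solute carriers (18 of 142, 12.7%), mitochondrial ribosomal proteins (5 of 44) and the respiratory chain (4 of 47), the interval held 16.7%. Without abemaciclib replicate 1, where 8.41% of all genes had a wide region, the receptor tyrosine kinase share was 11.9% (5.87 to 22.5%) and the ribosomal protein share 3.57% (0.985 to 12.1%), intervals that held that value. The developmental share was then 22.2%, the chromatin share 17.1%, the WNT, TGF-beta, Notch and Hedgehog share 17.7% and the ZNF share 4.42%, with intervals still on their side of it. Without replicate 2, where 11.6% of all genes had one, the interval of the developmental share was 12.8 to 35.2% and the ribosomal protein share was 1.49%. Some genes stand in more than 1 list, and neighbouring genes share regions, so genes are not independent counts. A gene counted as wide when any of its gained regions was, which favours genes with several regions. The 56 immediate early and stress response genes had 71 gained regions, 30 of them wide, beside 1082 of 7322 gained coding promoter regions in all.

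**Figure D5:**
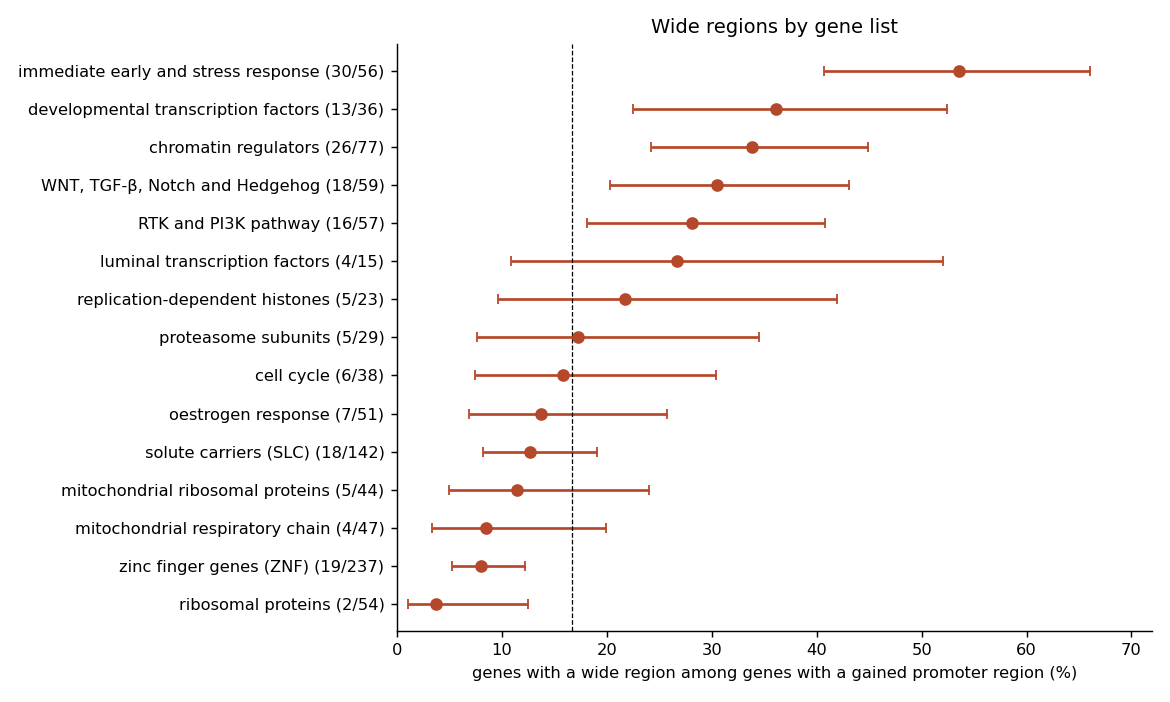
Percentage of genes with a wide region among the genes of each list that had a gained promoter region, with Wilson 95% intervals; wide and gained gene counts stand in brackets, and the dashed line is the 16.7% of all coding genes. Immediate early and stress response genes lie at 53.6% and ribosomal protein genes at 3.70%.

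The list of immediate early and stress response genes joins genes that growth signals switch on within minutes, such as JUN and IER2, with slower stress response genes and with further KLF, CEBP and HES family factors that are not immediate early genes. The 30 with a wide region were the transcription factor genes ATF4, BHLHE41, CEBPA, CEBPB, CEBPD, CEBPG, EGR2, FOSL2, HES4, JUN, KLF2, KLF4, KLF5, KLF10, KLF16, MAFF, NR4A2 and NR4A3, and the feedback genes DUSP2, DUSP4, DUSP5, DUSP6, DUSP8, GADD45B, GADD45G, IER2, IER5, TOB1, ZFP36L1 and ZFP36L2, most of which encode phosphatases, RNA-binding proteins or other regulators that are not transcription factors. Their regions measured from 1400 to 2510 bp with a median of 1653 bp. KLF16 (chr19:1862494-1865003) was the widest at 2510 bp, with folds of 36.0 and 31.3. CEBPD, on chromosome 8, measured 2308 bp with folds of 12.0 and 8.60, and DUSP8 (chr11:1572273-1574524), a phosphatase that acts on MAP kinases, 2252 bp with folds of 11.9 and 13.4. KLF4 (chr9:107486844-107489086) measured 2243 bp, as a peak of 2243 bp in replicate 1 and of 931 bp in replicate 2. The 26 listed genes with narrower gained regions alone included ARRDC3, ATF3, BTG2, CITED2, DDIT3, DDIT4, DUSP1, FOS, FOSB, FOSL1, GADD45A, HES1, ID1, ID2, ID3, IER3, IER5L, JUND, MAFK, MYC, NFIL3, NR4A1, SGK1, SRF and TXNIP.

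The peaks at these promoters were not taller than the rest. The 71 gained regions at the listed genes had a median fold of 11.6 in replicate 1 and 9.55 in replicate 2, beside 11.6 and 9.74 over all gained coding promoter regions, and 20 of them (28.2%) were in the top tertile of strength, beside 33.3%. Their CpG-rich stretch had a median of 1907 bp, beside 1288 bp for all. Other lists with long stretches differed in their share of genes with a wide region. Oestrogen response genes had a median stretch of 1884 bp and a share of 13.7%, and luminal transcription factors 2057 bp and 26.7%. Developmental transcription factors had 2266 bp and 36.1%. Whether stretch length goes with the share of a list was not tested. The immediate early and stress response genes are short, with a median MANE transcript span of 4.20 kb beside 30.0 kb for all genes with a gained promoter. Among all single-gene regions, 20.4% of wide ones (17.7 to 23.4%) and 18.0% of narrower ones (16.8 to 19.2%) belonged to a gene under 10 kb. Whether gene length goes with width at the listed genes was not tested. In the top and middle tertiles of strength the share of listed genes with a wide region was 65.0% and 56.0%, beside 30.1% and 13.7% of all genes with a gained promoter region in those tertiles. The share depended on the libraries: with peaks of abemaciclib replicate 2 alone it was 23.2% and of replicate 1 alone 40.0%, beside 8.41% and 11.6% over all genes.

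Ribosomal protein genes had narrow peaks in CpG-rich stretches that were not short. Their 58 gained regions had a median width of 790 bp, beside 905 bp for all, a median CpG-rich stretch of 1400 bp, and median folds of 8.49 and 8.54, below the 11.6 and 9.74 of all regions. The 2 wide regions at these genes were shared with a neighbour: RPL7 with RDH10 on chromosome 8 (2576 bp), and RPL7A with MED22 (chr9:133346903-133348488, 1586 bp). ZNF genes had a median width of 782 bp and a median stretch of 1108 bp. Apart from ZNF503, the widest ZNF regions were ZNF250 on chromosome 8 (2382 bp), ZNF398 (2083 bp) and the TUBGCP2/ZNF511 pair (2061 bp).

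Among developmental transcription factors, the 13 with wide regions were FOXD1, GATA2, GATA6, IRX2, LHX4, MEIS2, SIX4, SOX2, SOX9, SOX12, SOX13, TBX3 and ZIC2. Their gained regions lay in the longest stretches of any list, with a median of 2266 bp, and 36 of 118 listed genes (30.5%) had a gained promoter region at all, beside 40.1% of coding genes. LHX4 (chr1:180228993-180231917), a LIM homeobox gene, measured 2925 bp with peaks of 2821 and 1135 bp. GATA6 (chr18:22168643-22170776) measured 2134 bp with peaks of 2134 and 1996 bp, and folds of 17.6 and 8.21. FOXD1 (chr5:73446880-73448840), a forkhead gene, measured 1961 bp with peaks of 1961 and 1873 bp.

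The chromatin regulators with wide regions came from opposing complexes. PCGF2 belongs to a Polycomb repressive complex, and DOT1L, KMT2B and SETD1B are histone methyltransferases linked to transcription. CHD4, HDAC2 and MBD3 are parts of the NuRD remodelling and deacetylase complex, and ARID1B, SMARCC2 and SMARCD2 of SWI/SNF. KAT2B and KAT6A are histone acetyltransferases, KDM2A, KDM4C and KDM6A histone demethylases, and HDAC3 and HDAC4 histone deacetylases. Others were ASXL1, BRD3, BRPF3, CHD7, CHD9, SETD5 and SETD7. SETD5 (chr3:9395923-9398036, 2114 bp) had the highest folds of the list in both libraries, 46.5 and 38.8, with peaks of 2114 and 1827 bp. DOT1L, which shares its region with AP3D1 (chr19:2163852-2166074, 2223 bp), had folds of 24.2 and 19.1. CHD4 (chr12:6605685-6607794, 2110 bp) had folds of 10.8 and 9.29, with a peak of 1962 bp in replicate 1 and 2 peaks in replicate 2.

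Signalling genes with wide regions held both ligand or receptor and intracellular parts. In the WNT, TGF-beta, Notch and Hedgehog list these included the ligands WNT7B, WNT9A and JAG2, the receptors FZD7, FZD8, NOTCH1 and BMPR1A, and the intracellular factors GSK3B, MAML3, SMAD1, SMAD7, SKIL and TGIF1, besides HES4, HEY2, INHBB and LFNG. MAML3 (chr4:140150382-140153200), a Notch coactivator, measured 2819 bp with folds of 36.3 and 23.6. FZD8 (chr10:35640540-35642658), a Frizzled receptor, measured 2119 bp with folds of 22.5 and 26.4. In the receptor tyrosine kinase list, GAB1 (chr4:143335768-143338089, 2322 bp), GRB7, ERBB3 (chr12:56079051-56081001, 1951 bp) and GRB2 (chr17:75404342-75406124, 1783 bp) were the widest. ERBB3, the receptor HER3, had folds of 12.4 and 11.5, and the adaptor GAB1 21.6 and 16.5. The other 12 were the receptors DDR1, EPHA7, EPHB4, FGFR1 and INSR, the kinase subunits PIK3CA and PIK3R1, and RICTOR, RPS6KB1, RPS6KB2, SPRED1 and TSC2.

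The cell cycle and oestrogen response genes were close to the background. The cell cycle genes with wide regions were CCND3, CDK4, GINS1, KIF11, MAD2L1 and UHRF1. CDK4 and CCND3 encode the kinase that abemaciclib inhibits and a cyclin that activates it. CCND3 (chr6:41940715-41942155, 1441 bp) had folds of 47.7 and 34.8 and peaks of 1441 and 1145 bp. CDK4, in a region with MARCHF9 (chr12:57754667-57756473, 1807 bp), had folds of 6.61 and 6.45, and its replicate 2 signal was split into 2 peaks; a DMSO peak lay 2041 bp away. UHRF1 (chr19:4909109-4910618, 1510 bp), which maintains DNA methylation through replication, had folds of 43.0 and 39.6. KIF11, a spindle motor that shares its region with IDE (chr10:92573353-92574932, 1580 bp), had 15.2 and 6.44, MAD2L1 (chr4:120066055-120067504, 1450 bp), a spindle checkpoint gene, 21.3 and 17.1, and GINS1, a replication helicase subunit gene paired with ABHD12 (chr20:25389845-25391259, 1415 bp), 35.0 and 28.9. None of the 6 had a single peak of 1400 bp in both libraries. The replicate 1 summit of the CDK4 region lay nearest to the TSS of MARCHF9 (-178 bp), and that of the GINS1 region to the TSS of ABHD12 (9 bp). Promoter windows were drawn around the start of every transcript, so a region can be listed for a gene without covering its main start site. Whether the CDK4 region covers the main CDK4 start site was not checked.

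Many cell cycle promoters already held a peak without the drug. A promoter peak in a DMSO library was present for 47 of the 79 listed genes, which kept those regions out of the gained set, against 12 of 80 oestrogen response genes and 2811 of 19962 coding genes. Coding promoter regions with a peak in all 4 Rb libraries were wide in 540 of 996 cases (54.2%), and in 37.3% where 1 DMSO library joined the abemaciclib pair. The widest peaks of the all-library regions had medians of 1379 bp in abemaciclib replicate 1 and 1312 bp in replicate 2, against 838 and 723 bp over the gained regions. Of 2028 coding promoter regions with a peak in a single abemaciclib library alone, 2 were wide. Width was thus not particular to gained promoters.

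The oestrogen response genes with wide regions were BCL2, CELSR1, INHBB, KLF4, KLF10, MYB and TOB1, each at a promoter with no other coding gene and with a CpG-rich stretch of 1400 bp or more. Such a stretch was found at 75.8% of all wide regions. Of the 56 gained regions of this list, 2 (3.57%) covered promoters of 2 or more coding genes. BCL2 (chr18:63319476-63321149, 1674 bp), the anti-apoptotic counterpart of BIM, had folds of 25.1 and 15.5 and peaks of 1601 and 1592 bp. MYB (chr6:135180485-135181988, 1504 bp), a transcription factor of luminal breast cells, had 38.0 and 21.4. TOB1 (chr17:50866182-50868136, 1955 bp), an antiproliferative gene, had 11.5 and 10.5, and CELSR1 (chr22:46537426-46539142, 1717 bp), a planar polarity cadherin, 7.18 and 6.45. INHBB (chr2:120344192-120345675, 1484 bp), an activin subunit gene, had 18.6 in replicate 1 and 6.45 in replicate 2, while KLF10 on chromosome 8 (1447 bp) had 26.1 and 19.7, with a DMSO peak 790 bp away. In the luminal transcription factor list, FOXA1, the pioneer factor of the oestrogen receptor, shares its region with TTC6 (chr14:37594442-37596490, 2049 bp) and had peaks of 1381 and 2049 bp. TBX3 (chr12:114683188-114685083, 1896 bp) had folds of 24.3 and 21.5, and NR2F6 (chr19:17245475-17247193, 1719 bp) 13.4 and 11.3.

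Wide regions at genes for abundant housekeeping complexes were few and mostly at shared promoters, which these genes often have. All 4 respiratory chain regions, at ATP5ME, ATP5PF, COX4I1 and NDUFA11, and 4 of 5 proteasome regions covered the promoter of another coding gene, as did 4 of 5 mitochondrial ribosomal protein regions. Among all gained regions of these lists, wide or narrower, 26 of 49 (53.1%), 12 of 31 (38.7%) and 24 of 47 (51.1%) did so. Over all 7322 gained coding promoter regions the share was 17.1%, and over all wide regions 22.2%. With so few wide regions in these lists no difference was tested. HIRA/MRPL40 (chr22:19430806-19432933, 2128 bp) was the strongest of the wide mitochondrial ribosomal protein regions, with folds of 40.2 and 34.7. The 3 histone regions, which hold 5 genes of the H2A and H2B families, carried the E2F letters at the summit in each case and were GC-poor beside the others. H2AC25/H2BC26 (chr1:228457322-228459419, 2098 bp) had a GC content of 57.8%, H2AC12/H2BC12 (chr6:27146030-27147576, 1547 bp) 52.2%, and H2AC16 (chr6:27865111-27866655, 1545 bp) 48.5%. H2AC12/H2BC12 was built of 2 peaks in each library, the wider of 834 and 613 bp. Histone genes are near copies of each other, so reads may be placed at the wrong copy.

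By chromosome the share of gained coding promoter regions that were wide ran from 10.9% on chromosome 7 (37 of 340) to 22.9% on chromosome 18 (27 of 118, Wilson 95% interval 16.2 to 31.2%), with 22.7% on chromosome 4 (64 of 282, 18.2 to 27.9%). The intervals of these last 2 lay above the 14.8% of all, and those of chromosome 7 (upper bound 14.6%) and chromosome 1 (89 of 735, 9.95 to 14.7%) below it. With 23 chromosomes compared, no test was made of these differences.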

How the data were processed

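Rb CUT&RUN peak lists of 4 Rb libraries and 1 IgG2a library were analysed. After BBDuk trimming, the authors mapped read pairs to hg38 by Bowtie2 2.3.4.1, kept duplicates, dropped mitochondrial and blacklisted reads, and called peaks per library with MACS2 2.2.7.1 at a q-value threshold of 0.05 against IgG. Each deposited list gives a fold enrichment, a ratio to local background, together with the −log10 p-value and −log10 q-value that the authors' peak caller wrote. These values depend on each library's depth, and a wider peak can reflect a stronger signal or a different background, so folds were set beside each other within a library. The lists hold no counts over common regions, and no count model was run. All peaks on reference chromosomes lay within the bounds of the hg38 sequence used, and 464 peaks on other sequences entered no promoter region. Coordinates are 1-based.

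Peaks were merged at an overlap of 1 bp, and TSSs came from GENCODE 44. Python 3.11.15, numpy 2.4.6, pandas 2.3.3, scipy 1.17.1, pysam 0.24.0 and matplotlib 3.10.9 were used. Motifs and base composition were read in 200-bp windows centred on summits. On simulated sequence, 200 planted CpG-rich stretches were found with a median excess of 231 bp, which the 200-bp windows add at the edges of any stretch. Intervals are Wilson or, for differences, Newcombe 95% intervals and cover counting error only. Gene lists were matched by symbol, with SLC9A3R1 read as NHERF1, and the name pattern for histone genes was corrected after the files were read, because the first one matched no gene. Genes given with values are those of the 10 widest and 10 best ranked regions, up to 4 of the widest regions in each list, all wide members of the cell cycle and oestrogen response lists, and 3 regions on each side of the threshold. The members, lists and threshold were chosen with earlier results of these data known. Alternatives covered the q-value, the width threshold, the TSS set, single peaks, each library left out, regions near IgG2a peaks, peak strength, and the settings for stretches and windows. A few genes that these rules select are not reported here.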

Additional observations from a re-analysis of the deposited data

How the results depend on the processing

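Of 322 recomputed values, 203 counted as unchanged, which meant within the interval or SD of the reported value. For the number of regions a fixed factor took the place of a spread. Dropping regions that overlap an IgG2a peak removed 0 wide and 1 narrower region, so the values of that setting could hardly move. The number of wide regions followed the threshold, with 2984 at 1000 bp, 188 at 2000 bp and 445 where a single peak reached 1400 bp in each abemaciclib library. Leaving out a library gave 555 to 1454 regions, and the lowest came without abemaciclib replicate 1, since the width then rests on replicate 2 alone. The same 3 settings moved the widest-peak median to 1132, 2051 and 1700 bp (1480 to 1611 bp with a library left out). The median fold of wide regions was 19.4 at a q of at most 1e-05 and 18.9 at 2000 bp (16.3 to 18.9 with a library left out).

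The median CpG-rich stretch of wide regions was 1508 bp at 1000 bp, 2126 bp at 2000 bp, 1876 bp for single peaks and 1488 bp with stricter GC and CpG limits (0.55 and 0.65), where narrower regions had 1030 bp; it was 1728 to 1785 bp with a library left out, and under every alternative run it stayed above that of narrower regions. The difference in regions with 2 or more genes was 14.1 points at 2000 bp, 2.90 in the middle tertile, 3.02 by TSSs near the summit, and 6.41 to 7.74 with a library left out. The summit GC difference was 0.50 to 2.0 points with a library left out. The E2F difference stayed within its interval, which includes 0, in each alternative. Its sign was not stable. It was -0.819 points in the top tertile, -0.119 in the middle tertile and -0.892 with windows centred on the nearest coding TSS, and positive in the other alternatives. The median summit distance was 119 bp at 1000 bp, 158 bp at 2000 bp, 134 and 149 bp in the top and middle tertiles and 235 bp with 1 TSS per gene, where fewer start sites can be nearest (136 to 151 bp with a library left out).

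Genes with a wide region made up 22.6% of gained promoter genes at a q of at most 1e-05, 44.3% at 1000 bp, 3.16% at 2000 bp, 7.06% for single peaks of 1400 bp, 30.1% and 13.7% in the top and middle tertiles, 14.6% at single-gene regions, 24.4% for single peaks of 1000 bp (chosen after seeing the data, as was the stretch at the summit), and 8.41% to 19.8% with a library left out. The immediate early, developmental, chromatin, WNT/TGF-beta/Notch/Hedgehog and receptor tyrosine kinase lists stayed above, and the ribosomal protein, respiratory chain and ZNF lists below, the share of all genes in each of 14 alternatives. Intervals clear of that share were kept in 14 of 14 for the immediate early list, 13 for WNT/TGF-beta/Notch/Hedgehog (lost in the top tertile), 12 for chromatin, 11 for developmental and for ZNF, and 8 for receptor tyrosine kinase and for ribosomal protein genes. At 1000 bp the developmental list stood at 47.2% (32.0 to 63.0%) and the receptor tyrosine kinase list at 45.6% (33.4 to 58.4%), and without abemaciclib replicate 1 the latter stood at 11.9% (5.87 to 22.5%). The cell cycle list kept its side in 9 of 14. No paired analysis was possible because the comparison between treatments comes from peaks called separately in each library and not from a test across libraries, and the DMSO libraries have no peak, and so no value, in a gained region.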
